A study of Homo sapiens with 18 samples.

Results

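TEX19 (testis expressed 19) is 1 of the 23571 named genes in a table of FPKM values (fragments counted per length of transcript and per depth of the library) from 18 RNA-seq libraries of SW48 cells, a human colon adenocarcinoma line. It was chosen by its FPKM levels in these same libraries, high with siRNA against CHD4 and near 0 without, so its own values are given as a description, with no test. It is described here by its single row in all 18 libraries, beside gene lists related to its known roles and its chromosomal position. Among the named genes, 12809 had at least 1 FPKM in at least 3 libraries and entered the model, TEX19 among them. It passed that minimum only through the libraries that received siRNA against CHD4.

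The 18 libraries form 6 groups of 3. All cells received either a negative control siRNA or siRNA against CHD4 (siCHD4), and no group was left without siRNA. The first pair of groups received control siRNA or siCHD4 alone on days 1, 3 and 6, with RNA on day 8. The second pair received siRNA against DNMT1 (siDNMT1) on days 1, 3 and 5 and then control siRNA or siCHD4 on days 7 and 8, with RNA on day 11. The third pair received 50 nM decitabine on days 1, 2 and 3 together with control siRNA or siCHD4 on days 1 and 2, with RNA on day 5. Comparisons of siCHD4 with control siRNA are therefore made within a schedule, whereas treatment and schedule cannot be told apart across the 3 backgrounds. All libraries come from 1 cell line grown in 10% serum. Nothing in the labels ties the libraries of a group to separate cultures, and p-values given here then measure a spread between libraries that may be technical. How many cells held a transcript and how much of it each cell held cannot be told apart in these bulk samples.

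TEX19 is a mammal-specific gene that is expressed in germ cells, in pluripotent cells and in the placenta, and that is silent in most adult tissues. In the mouse, which has a pair of TEX19 genes, it is one of the genome-defence genes of the germline: it helps to keep retrotransposons silent, it is needed for meiosis in males, and its protein binds the ubiquitin ligase UBR2. Its promoter is methylated in somatic cells, and it is often taken as a model of a gene whose silencing depends on DNA methylation. In several human tumours TEX19 is expressed as a cancer-testis gene. CHD4 is the ATPase of the NuRD complex, which remodels nucleosomes and removes acetyl groups from histones. DNMT1 copies DNA methylation to the new strand after replication, and decitabine is a nucleoside that traps DNA methyltransferases on DNA.

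In the GENCODE annotation of GRCh37, the build to which the reads were aligned, TEX19 lies on the plus strand of chromosome 17, from 80317123 to 80321651. Its transcript has 2 exons. Exon 1 (80317123 to 80317161) holds only 5′ UTR, and exon 2 (80319756 to 80321651) holds the rest of the 5′ UTR, the whole coding sequence of 492 bases (80320027 to 80320518) and the 3′ UTR. A gene of unknown kind is annotated on the minus strand within exon 2, from 80320225 to 80321072. The libraries were made with a stranded kit, but the strand setting of the authors' quantification is not given in the sources used here, so reads of the opposite strand in this stretch cannot be told apart from those of TEX19. TEX19 had no entry in the promoter sequences used here, and none is printed.

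TEX19 was near the lower limit of detection in every control siRNA library and was abundant in every siCHD4 library, in each of the 3 backgrounds. With control siRNA alone, TEX19 was at 0.250, 0.201 and 0.498 FPKM in replicates 0, 1 and 2. With siCHD4 alone it was at 49.9, 68.4 and 54.6 FPKM. All 3 siCHD4 libraries were thus far above all 3 controls, as were those of 16.6% of the tested genes above theirs by any margin, and the lowest of them was 100-fold above the highest control. The group means were 57.6 ± 9.61 and 0.316 ± 0.160 FPKM (SD, n = 3 each), a ratio of 182. On the log2(FPKM + 1) scale, which understates the change of a low gene, the difference was 5.47 (SE 0.21).

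The same held in cells depleted of DNMT1. With control siRNA plus siDNMT1, TEX19 was at 0.357, 0.327 and 0.378 FPKM, and with siCHD4 plus siDNMT1 at 54.6, 63.1 and 53.6 FPKM. The 2 groups again did not overlap (33.7% of the tested genes had all 3 siCHD4 libraries above the controls), and the lowest siCHD4 library was 142-fold above the highest control. The means were 57.1 ± 5.21 and 0.354 ± 0.0253 FPKM (SD, n = 3 each), a ratio of 161 and a log2 difference of 5.42 (SE 0.21).

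In the decitabine background TEX19 was higher with siCHD4 too, but at a lower level. With siCHD4 plus decitabine it was at 16.2, 15.5 and 16.4 FPKM, and with control siRNA plus decitabine at 1.54, 0.210 and 0.222 FPKM. The siCHD4 libraries had a coefficient of variation of 2.98%, while replicate 0 of the controls stood above the other 2. The means were 16.0 ± 0.478 and 0.658 ± 0.767 FPKM (SD, n = 3 each), a ratio of 24.4 and a log2 difference of 3.45 (SE 0.21). Without replicate 0 of the controls, the control mean was 0.216 FPKM and the ratio 74.3. The lowest siCHD4 library was 10.1-fold above the highest control with all libraries kept, in a background where 13.8% of the tested genes had all 3 siCHD4 libraries above the controls. The rule that chose TEX19 used these values, and nothing is read from these shares.

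**Figure D1:**
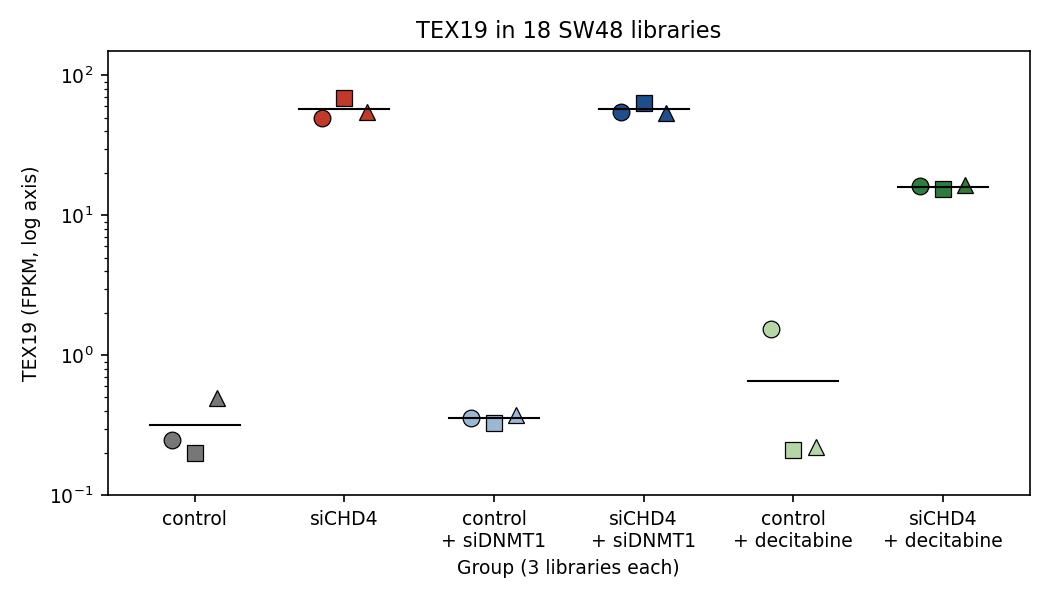
TEX19 level (FPKM, log axis) in each of the 18 libraries, by group on the horizontal axis; circles, squares and triangles are replicates 0, 1 and 2 and the black lines are group means. The 9 siCHD4 libraries sit between 15.5 and 68.4 FPKM, and the 9 control siRNA libraries between 0.201 and 1.54 FPKM.

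The order of the 6 group means separated into 3 levels. The 2 highest, siCHD4 alone and siCHD4 plus siDNMT1, overlapped, and the ratio of the latter to the former was 0.991. Next came siCHD4 plus decitabine, whose 3 libraries lay below all 6 of the others with siCHD4: the mean with siCHD4 alone was 3.59-fold and that with siCHD4 plus siDNMT1 3.56-fold the mean with siCHD4 plus decitabine. The 3 control siRNA groups overlapped each other at the bottom. Over all libraries, the median was 53.6 FPKM in the 9 with siCHD4 and 0.327 FPKM in the 9 with control siRNA.

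Neither DNMT1 depletion nor decitabine without siCHD4 separated TEX19 from the control siRNA group. The log2 difference was 0.05 (SE 0.21) for siDNMT1, with a ratio of means of 1.12, and 0.25 (SE 0.21) for decitabine. For decitabine the ratio of means was 2.08 and the ratio of medians 0.888, which lie on opposite sides of 1. Without replicate 0 of the decitabine controls, the log2 difference was -0.108. Both comparisons use the same 3 control siRNA libraries as the comparison of siCHD4 alone. DNMT1 RNA itself was at 44.7 ± 0.892 FPKM with control siRNA and fell to 12.3 ± 1.15 FPKM with siDNMT1 (SD, n = 3; log2 difference -1.78, limma adjusted p = 2.32e-08). With decitabine, which acts on the protein, DNMT1 RNA was at 51.7 FPKM (log2 difference 0.20, limma adjusted p = 0.222).

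The control values rest on a handful of fragments. After division by the worth of 1 fragment in each library, read from the steps between the values of low genes, the TEX19 values were whole multiples of a step of 0.0624 FPKM at the depth of control siRNA replicate 0 (largest departure 0.0025 of a step over all 18 libraries). If that step is 1 fragment, control siRNA libraries held 4, 3 and 8 fragments, those with siDNMT1 6, 5 and 6, and those with decitabine 6, 3 and 4. The siCHD4 libraries held 1251, 1633 and 859 fragments alone, 955, 1014 and 1032 with siDNMT1, and 429, 414 and 367 with decitabine. Each control library thus held at most 8 fragments, and each siCHD4 library at least 367.

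Replicate 0 of the decitabine controls was much shallower than the other libraries. There 1 step was worth 0.257 FPKM, against 0.0700 and 0.0554 FPKM in replicates 1 and 2. Its 6 fragments give a 95% exact Poisson interval of 0.566 to 3.36 FPKM. This only narrowly overlaps the interval of 0.0433 to 0.614 FPKM from the 3 fragments of replicate 1. It also narrowly overlaps that of 0.0604 to 0.568 FPKM from the 4 fragments of replicate 2. For control siRNA alone the intervals ran from 0.0681 to 0.639, from 0.0414 to 0.586 and from 0.215 to 0.982 FPKM. These intervals cover counting error only. Overlap of such intervals does not show that libraries share a level. Whether replicate 0 differs from replicates 1 and 2 was not tested. With so few fragments, small differences between control siRNA libraries are hard to detect.

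CHD4, the gene targeted by the siRNA, was lower in each siCHD4 group than in its control. With control siRNA alone CHD4 was at 59.1, 61.2 and 68.2 FPKM and with siCHD4 alone at 39.0, 31.8 and 23.2 FPKM, which left 49.9% of the control mean (log2 difference -1.01, limma adjusted p = 0.000201). With siDNMT1 the controls were at 63.7, 67.1 and 73.9 FPKM and the siCHD4 libraries at 29.0, 27.1 and 29.1 FPKM, or 41.6% of the control mean (log2 difference -1.24, limma adjusted p = 7.64e-06). With decitabine the controls were at 66.8, 80.2 and 81.5 FPKM and the siCHD4 libraries at 55.6, 56.5 and 52.6 FPKM, or 72.1% (log2 difference -0.46, limma adjusted p = 0.0752). The groups did not overlap in any background, although the last difference missed the threshold of 0.05.

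The background with the highest remaining CHD4 RNA was therefore also the one with the lowest TEX19 level among the siCHD4 groups. These libraries were also taken on day 5 rather than on day 8 or 11, and the remaining CHD4, the day and the drug cannot be told apart. Within the siCHD4 alone group the library with the least CHD4 (replicate 2, 23.2 FPKM) had 54.6 FPKM of TEX19, and the library with the most TEX19 (replicate 1, 68.4 FPKM) had 31.8 FPKM of CHD4.

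**Figure D2:**
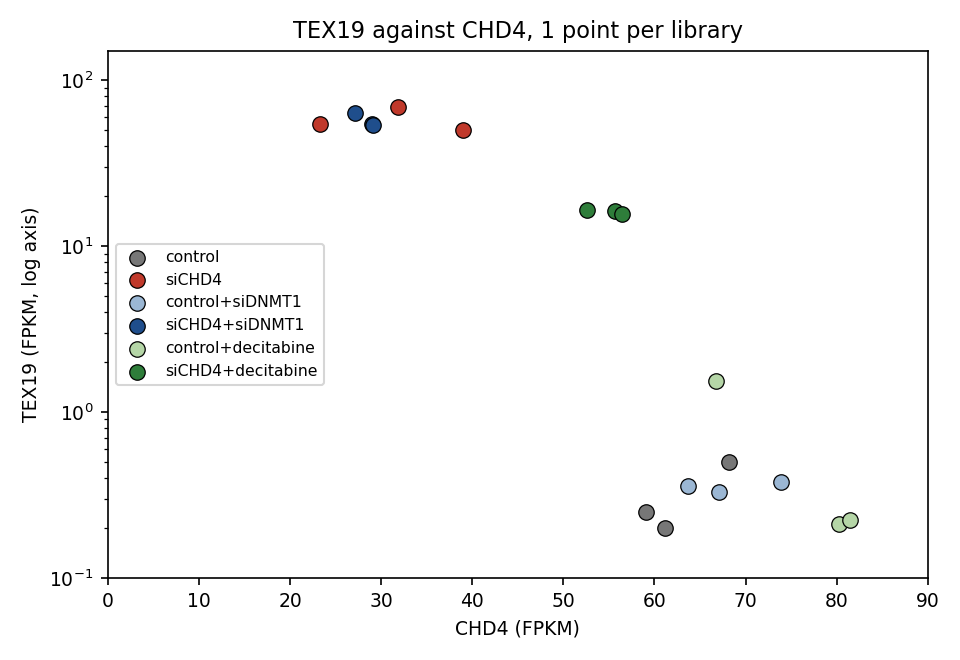
TEX19 (FPKM, log axis) against CHD4 (FPKM, linear axis), with 1 point per library and colours for the 6 groups. The siCHD4 plus decitabine libraries, at 52.6 to 56.5 FPKM of CHD4, lie closest to the controls in CHD4 and at 15.5 to 16.4 FPKM of TEX19.

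Against the whole table, TEX19 moved from the middle of the named genes to near the top with siCHD4 alone and with siCHD4 plus siDNMT1. It moved less far with siCHD4 plus decitabine. Of the named genes, 3747 were at 0 in every library, so a middle rank is a low level. In the control siRNA libraries 41.8% to 51.8% of the named genes were listed at a lower FPKM than TEX19. The share was 91.9% to 93.7% with siCHD4 alone, 93.8% to 94.5% with siCHD4 plus siDNMT1 and 77.0% to 77.9% with siCHD4 plus decitabine. By log2 difference TEX19 ranked 5 of 12809 tested genes with siCHD4 alone, between the small nucleolar RNA genes SNORD88A (5.53) and SNORA2B (4.89). With siDNMT1 it ranked 9, between the microRNA genes MIR641 (5.50) and MIR378D2 (5.21), and with decitabine 16, between MIR941-1 (3.59) and MIR3909 (3.41). Of the genes ahead of it, 4 of 4, 7 of 8 and 15 of 15 were small RNA genes, whose transcripts are very short. The exception was SNAR-I, a short noncoding RNA gene.

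A further comparison set the lowest of the 9 siCHD4 libraries against the highest of the 9 control siRNA libraries. For TEX19 this gap was 2.70 on the log2(FPKM + 1) scale, the widest of all named genes. It remained the widest with a pseudocount of 0.1, without the decitabine libraries (5.087) and without replicate 0 of the decitabine controls (3.461). A positive gap was seen for 286 named genes, and for 1.88% of the tested ones, and a gap over 1 for 7. Of 11935 genes under 2 FPKM in all 9 control siRNA libraries, 195 were at 1 FPKM or more in all 9 siCHD4 libraries and 15 were at 2 FPKM or more. At 5 FPKM or more TEX19 alone was left. The genes next in order were TMEM45B, with a lowest siCHD4 library of 4.92 FPKM, GRB10 with 4.86 and RASSF5 with 3.95. These counts describe the choice of TEX19 and carry no test.

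The genes with the pattern most like that of TEX19 were found by Pearson's r of log2(FPKM + 1) over the 18 libraries. Of the tested genes, 80 had an r over 0.9. The 8 highest were HEPH (r = 0.975), RASSF5 (0.974), HEPHL1 (0.973), AZGP1 (0.972), ZNF827 (0.965), OTUD5 (0.964), FOS (0.962) and ISPD (0.960). Their Spearman rho ranged from 0.752 for HEPH to 0.924 for OTUD5. All 18 points share the split into 9 siCHD4 and 9 control libraries, which dominates such an r, and the choice was sensitive to the measure: 1 of the 8 was kept with Spearman's rho and 3 over the 6 group means.

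With siCHD4 alone all 8 alike genes had a lower mean than TEX19, the highest being FOS at 50.9 FPKM. All 8 had their lowest mean among the siCHD4 groups with decitabine, as TEX19 had, which is part of the pattern that r measures. Of the 3 described here, the decitabine libraries of HEPH and HEPHL1 lay below the other siCHD4 libraries. Those of AZGP1 overlapped them. HEPH, a copper-dependent iron oxidase of the intestine, was at 2.32, 2.64 and 1.88 FPKM with control siRNA and at 12.4, 12.3 and 19.3 FPKM with siCHD4. With siCHD4 plus decitabine it was at 7.37, 7.61 and 6.84 FPKM, again below the other siCHD4 libraries. HEPHL1, its paralog, was at a mean of 0.160 FPKM with control siRNA, 3.74 with siCHD4, 2.60 with siCHD4 plus siDNMT1 and 2.19 with siCHD4 plus decitabine, where its libraries also lay below the other siCHD4 libraries. AZGP1, a secreted glycoprotein, was at 0.102 FPKM with control siRNA and at 2.66, 2.87 and 2.53 FPKM in the same 3 siCHD4 groups, so that the decitabine group overlapped the others.

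By the gap between siCHD4 and control libraries, LGALS1, which encodes galectin-1, stood next to TEX19 with 1.57. It differed from TEX19 in the DNMT1-depleted cells: LGALS1 was at 57.2 ± 11.9 FPKM with siCHD4 alone and at 269.6 ± 16.3 FPKM with siCHD4 plus siDNMT1 (SD, n = 3 each), and at 58.3 ± 6.54 FPKM with siCHD4 plus decitabine. Its 9 control libraries lay between 2.16 and 14.3 FPKM. TMEM45B (1.20), HEPH (1.11), AZGP1 (1.10), HEPHL1 (1.02), the embryonic globin gene HBE1 (1.01), GRB10 (1.00) and TNC (0.97) followed, and 3 of these 8 genes were also among the 8 with the highest r.

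**Figure D3:**
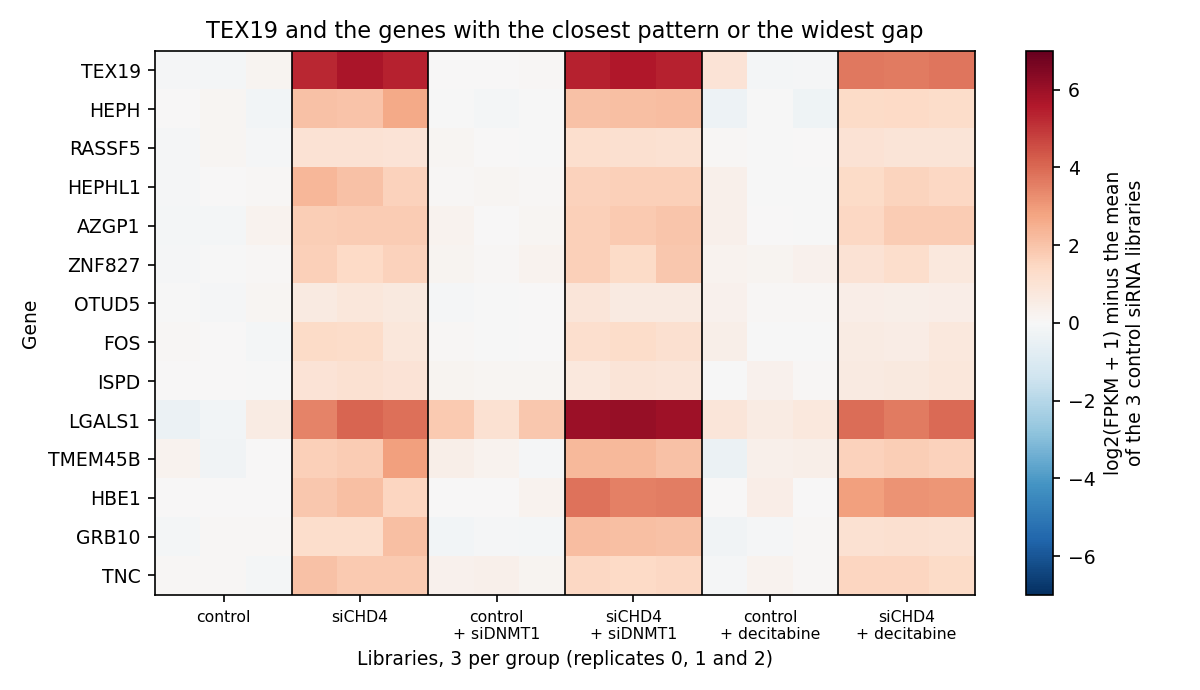
TEX19 and the genes with the highest r or the widest gap (rows) in the 18 libraries (columns, 3 per group), coloured by log2(FPKM + 1) minus the mean of the 3 control siRNA libraries. TEX19, in the top row, shows a mean difference of 5.47 with siCHD4 alone. In the control siRNA groups with siDNMT1 and with decitabine the mean difference is 0.05 and 0.25. Replicate 0 of the decitabine controls, at 1.54 FPKM, stands above the other control libraries. LGALS1 is highest with siCHD4 plus siDNMT1.

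Most tested germline genome-defence genes, the functional company of TEX19 in the mouse, were called higher with siDNMT1 and with decitabine. None was called with siCHD4 alone. The list of 22 genes holds the PIWI proteins, which carry piRNAs, the Tudor domain proteins that bind them, and cofactors such as MAEL and GTSF1. Of the 22, 13 were tested. Members such as PIWIL2, MAEL, TDRD1, TDRD9 and GTSF1 were under 1 FPKM in every control siRNA and siCHD4 alone library. They passed the minimum only through libraries with siDNMT1 or decitabine. The counts and medians of this list are therefore partly fixed by the filter, and nothing is read from their excess over all tested genes. With siCHD4 alone 0 of 13 were called higher or lower by limma, against 9.58% and 9.71% of all tested genes. At an unadjusted p under 0.05, 2 were higher, and the library-weighted fit called 2. The median log2 difference of the list was 0.06, beside 0.0025 over all tested genes.

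With siDNMT1 against control siRNA, 8 of the 13 rose and none fell (6.94% of all tested genes were called higher and 4.4% lower), with a median of 0.71. With decitabine 8 rose and 1 fell (9.6% called higher and 8.63% lower), with a median of 0.82. PIWIL2, a PIWI protein of spermatogonia, was at 0.0944, 0.0674 and 0 FPKM with control siRNA and at 0.121, 0.105 and 0.160 FPKM with siCHD4 alone (log2 difference 0.10, limma adjusted p = 0.582). It was at 2.88, 3.10 and 2.86 FPKM with siDNMT1 (log2 difference 1.91, limma adjusted p = 1.72e-08) and at 2.85, 2.40 and 1.62 FPKM with decitabine (1.63, limma adjusted p = 1.43e-07). The PIWIL2 levels under siDNMT1 and decitabine thus did not overlap those of either group without them. Both of these comparisons share their control libraries with siCHD4 alone.

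TDRD1, a Tudor protein of the piRNA granules, and MAEL, a piRNA cofactor, were also called higher with siDNMT1 and with decitabine and not with siCHD4 alone. TDRD1 was at 0.477 FPKM with control siRNA, at 0.643 with siCHD4 alone (log2 difference 0.15, limma adjusted p = 0.460), at 7.27 with siDNMT1 (2.49, limma adjusted p = 3.45e-09) and at 5.12 with decitabine (2.04, limma adjusted p = 3.66e-08). MAEL was at 0.0708 FPKM with control siRNA, with a log2 difference of -0.01 for siCHD4 alone (limma adjusted p = 0.981), 1.77 for siDNMT1 (1.25e-05) and 1.87 for decitabine (7.37e-06). Under siCHD4 alone TEX19, at 57.6 FPKM, was high where TDRD1 and MAEL were low. Under siDNMT1 and decitabine without siCHD4, TEX19 was low, at 0.354 and 0.658 FPKM, where they were high. All were high together in siCHD4 plus siDNMT1, at 57.1 FPKM for TEX19, 6.82 for TDRD1 and 5.03 for MAEL. In siCHD4 plus decitabine they were at 16.0, 5.45 and 4.365 FPKM. The TEX19 levels were used to choose it, and the contrast was not tested.

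Once DNMT1 was depleted, siCHD4 raised 9 of the 13 and lowered 1, where 24.8% and 24.6% of all tested genes were called, with a median log2 difference of 0.55 beside -0.0117 over all tested genes. GTSF1, a piRNA cofactor, was listed at 0 in the control siRNA and siCHD4 alone groups, and rose from 2.79 to 13.9 FPKM (log2 difference 2.06, limma adjusted p = 1.77e-05). TDRD9, a helicase with a Tudor domain, rose from 1.04 to 3.43 FPKM (1.12, limma adjusted p = 1.99e-07). The gene that fell was PLD6, a mitochondrial phospholipase, from 7.01 to 4.58 FPKM, named after its values were seen. The difference between the siCHD4 effects with siDNMT1 and alone passed the test for GTSF1, TDRD9 and DDX4 among the 13 genes. The share of all tested genes that passed it is not given here, so nothing is read from that number of genes.

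With decitabine, siCHD4 raised 4 of the 13 and lowered none (3.26% and 1.31% of all tested genes were called), with a median of 0.24 beside 0.0133 over all tested genes. The 4 were PIWIL2, DDX4, TDRD9 and GTSF1. This count was 1 without replicate 0 or replicate 1 of siCHD4 plus decitabine, 2 without replicate 2 of that group or replicate 1 or 2 of its controls, and 0 when only the 2 groups compared were fitted.

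Of a list of 32 other germ cell and meiotic genes, 17 were tested. Here too, members such as SYCP3, SOHLH1 and DPEP3 were under 1 FPKM in every control siRNA and siCHD4 alone library. They passed the minimum only through libraries with siDNMT1 or decitabine, so nothing is read from the excess of this list over all tested genes. With siCHD4 alone 3 rose and none fell (median 0.10), where 9.58% and 9.71% of all tested genes were called higher and lower (median 0.0025). With siDNMT1 11 rose and none fell (median 0.83), where 6.94% and 4.4% were called (median -0.0127), and with decitabine 11 rose and none fell (median 0.65), where 9.6% and 8.63% were called (median -0.0169). SYCP3, a structural protein of the meiotic chromosome axis, was at 0.320 FPKM with control siRNA and 0.382 with siCHD4 alone (log2 difference 0.05, limma adjusted p = 0.866), and rose to 2.86 with siDNMT1 (1.55, limma adjusted p = 1.48e-05) and to 5.96 with decitabine (2.40, limma adjusted p = 1.48e-07).

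The 3 genes that rose with siCHD4 alone were HIST1H1T, NANOS3 and MSH4. HIST1H1T, the testis linker histone, was at 3.13, 2.24 and 4.80 FPKM with control siRNA and at 113, 153 and 68.1 FPKM with siCHD4, with no overlap (log2 difference 4.64, limma adjusted p = 1.02e-06). Unlike TEX19 it also rose with siDNMT1, to 30.3 FPKM (2.86, limma adjusted p = 5.70e-05), and with decitabine, to 32.1 FPKM (2.76, limma adjusted p = 8.76e-05), although no test of that contrast with TEX19 was made. Without replicate 0 of the decitabine controls that level was 19.3 FPKM (2.24, limma adjusted p = 9.25e-05). Reads of histone genes can be shared among near-identical copies, so its level is uncertain. NANOS3, an RNA-binding protein of early germ cells, rose from 0.884 to 2.66 FPKM (0.91, limma adjusted p = 0.0109), and MSH4, a meiotic crossover factor, from 0.192 to 0.670 FPKM (0.47, limma adjusted p = 0.0197). The count of 3 was 1 when only the 2 groups compared were fitted.

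With siDNMT1, siCHD4 raised 12 of the 17 and lowered 2 (median 0.56), where 24.8% and 24.6% of all tested genes were called higher and lower. With decitabine it raised 5 and lowered none (median 0.15), where 3.26% and 1.31% were called. TEX101, a surface protein of germ cells, rose from 0.517 to 6.38 FPKM with siDNMT1 (2.29, limma adjusted p = 1.98e-07). SOHLH1, a transcription factor of spermatogonia, rose from 3.13 to 25.6 FPKM (2.70, limma adjusted p = 1.76e-06). The 2 that fell were MEIOB, a recombination factor, from 2.33 to 1.01 FPKM (-0.72, limma adjusted p = 0.000668), and SYCE2, of the synaptonemal complex, named after its values were seen. The count of 5 with decitabine was 2 without replicate 1 or 2 of either decitabine group, 3 without replicate 0 of siCHD4 plus decitabine, and 1 when only the 2 groups compared were fitted.

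**Figure D4:**
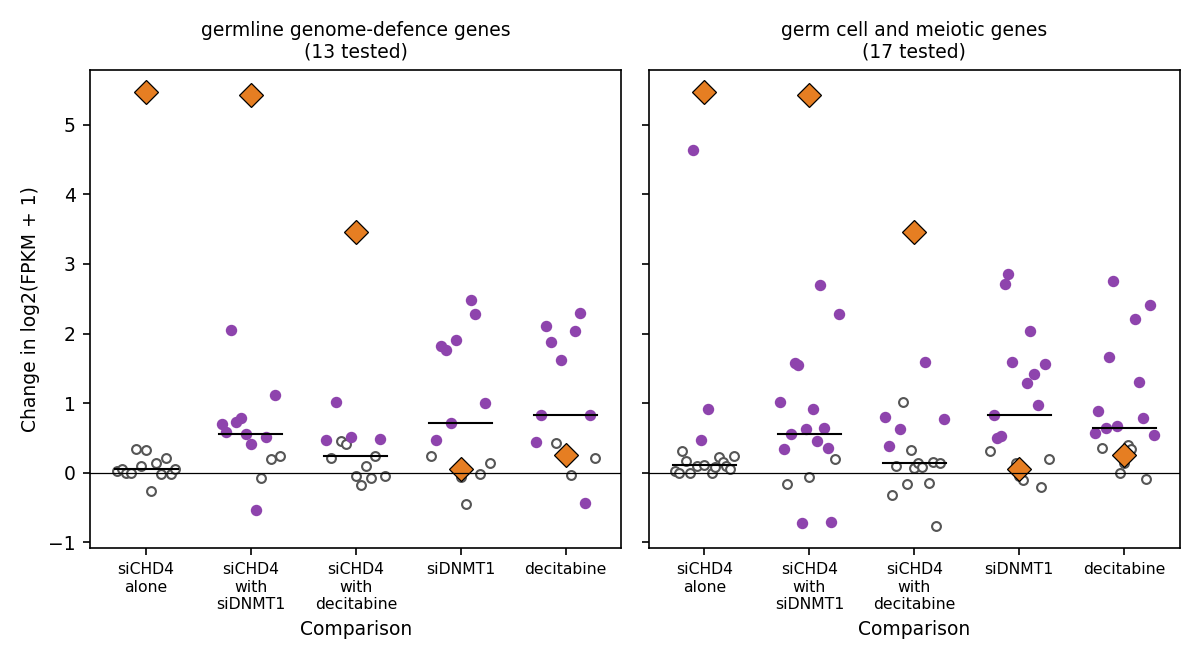
Change in log2(FPKM + 1) of the 13 tested germline genome-defence genes and the 17 tested germ cell and meiotic genes in 5 comparisons, with filled points for genes called by limma, lines for list medians and orange diamonds for TEX19. The diamonds stand at 5.47, 5.42 and 3.45 in the siCHD4 comparisons and at 0.05 and 0.25 for siDNMT1 and decitabine, where the list medians are higher.

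Markers of other cell types were read beside these lists. Of 10 markers of testis somatic cells and spermatids, PRM1, PRM2 and TNP1, which package spermatid DNA, were listed at 0 in all 18 libraries. Summed over the list the level was 21.9 to 26.9 FPKM with control siRNA and 26.8 to 56.2 FPKM with siCHD4 alone, most of it SOX9, which the colon also expresses. With siCHD4 plus siDNMT1 the sum was 68.5 to 97.6 FPKM against 31.97 to 38.4 FPKM in its controls. There 2 of the 3 tested markers, SOX9 and AMH, were called higher, beside 24.8% of all tested genes (24.6% lower). With decitabine the sums were 34.0 to 59.3 and 31.8 to 37.8 FPKM. By limma 0 of 3 were called (0 also at an unadjusted p under 0.05), beside 3.26% of all tested genes higher and 1.31% lower.

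The 7 fibroblast markers summed to 0.121 to 0.490 FPKM with control siRNA and to 0.414 to 3.80 FPKM with siCHD4 alone. With siCHD4 plus siDNMT1 the sum was 14.1 to 16.0 FPKM against 3.99 to 4.11 FPKM. There 3 of 3 tested markers were called higher, beside 24.8% of all tested genes. With siCHD4 plus decitabine the sum was 6.78 to 7.67 FPKM against 0.624 to 3.90 FPKM. There 1 of 3 tested markers, COL1A1, was called higher, beside 3.26% of all tested genes. COL3A1, a defining fibroblast collagen, was listed at 0 in all 18 libraries. The 7 blood markers summed to 2.25 to 4.07 FPKM with control siRNA and 2.71 to 4.20 FPKM with siCHD4 alone. With siCHD4 plus siDNMT1 they summed to 7.68 to 9.09 FPKM against 2.78 to 4.45 FPKM in its controls. There 3 of 4 tested markers were called higher, again beside 24.8% of all tested genes. With siCHD4 plus decitabine the 7 blood markers summed to 5.44 to 6.20 FPKM against 4.21 to 6.24 FPKM. The part of these markers in the levels of TEX19 was not tested. The 5 endothelial markers summed to at most 0.551 FPKM in any library.

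Of 10 colon epithelial markers 9 were tested. CDX1 was at most 0.0417 FPKM in any library, and KRT20 and VIL1, markers of differentiated cells, were at 0.0241 and 0.696 FPKM with control siRNA and at 2.37 and 3.28 FPKM with siCHD4 alone (limma adjusted p = 0.000128 and 0.00163). EPCAM was at 258 FPKM with control siRNA and at 243 FPKM with siCHD4 alone (limma adjusted p = 0.724). The intestinal transcription factor CDX2 rose from 37.9 to 62.1 FPKM (limma adjusted p = 0.00272), whereas the keratins KRT8 and KRT18 fell from 804.8 to 427 and from 884 to 422 FPKM. The summed level of the list was 2020 to 2132 FPKM with control siRNA and 1206 to 1373 FPKM with siCHD4 alone, the keratins being the bulk of it.

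The TEX prefix records expression in testis and no common family. Of 24 other TEX-numbered symbols 9 were tested and 3 were listed at 0 in all libraries. With siCHD4 alone 1 rose and 1 fell: TEX261 from 25.4 to 35.5 FPKM (0.45, limma adjusted p = 0.0130) and TEX2 from 19.0 to 12.1 FPKM (-0.62, limma adjusted p = 0.000956). TEX261 was not called without replicate 1 of the control siRNA group. These counts are near the 9.58% and 9.71% of all tested genes called. With siDNMT1, siCHD4 raised 2 and lowered 3, also near the 24.8% and 24.6% of all tested genes. The 2 were TEX101, also counted among the germ cell genes above, and TEX11, a meiotic gene on the X chromosome. TEX11 rose from 0.244 to 2.50 FPKM (1.47, limma adjusted p = 3.39e-06). Beside 3.26% of all tested genes called higher and 1.31% lower with decitabine, the same 2 rose there and none fell. That count was 0 without replicate 1 of the decitabine controls or replicate 1 or 2 of siCHD4 plus decitabine, and 1 without replicate 2 of the decitabine controls.

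UBR2, the ubiquitin ligase that binds TEX19 in the mouse, was present in all libraries and was not called in any siCHD4 comparison, except with library weights. It was at 14.8, 16.1 and 17.7 FPKM with control siRNA and at 18.1, 15.2 and 14.5 FPKM with siCHD4 alone, with overlap (log2 difference -0.02, limma adjusted p = 0.885). With library weights this difference was 0.17 (limma adjusted p = 0.0256), of the opposite sign. The differences with siDNMT1 and with decitabine were -0.12 (limma adjusted p = 0.265) and 0.03 (0.890). Among the 6 genes of the N-end rule pathway, in which UBR2 acts, siCHD4 alone lowered UBR1, a related ligase, from 25.5 to 17.9 FPKM (-0.48, limma adjusted p = 0.00232). It raised UBE2A, a ubiquitin-conjugating enzyme that works with them, from 25.8 to 35.0 FPKM (0.42, limma adjusted p = 0.00250). The count of 1 that rose was 3 without replicate 2 of the control siRNA group, 5 with library weights and 0 when only the 2 groups compared were fitted, beside 9.58% of all tested genes called higher and 9.71% lower. With siDNMT1, UBE2A, UBE2B and UBR4 rose and none fell (24.8% and 24.6% of all tested genes). With decitabine 0 of 6 were called by limma (1 higher at an unadjusted p under 0.05, and 1 called with library weights), beside 3.26% and 1.31% of all tested genes.

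TEX19 is also expressed in pluripotent cells and placenta, but few genes of those cells passed the minimum. Of 21 pluripotency and trophoblast genes, 20 were listed and 1, POU5F1, was tested. POU5F1 was at 1.71 FPKM with control siRNA and 2.24 FPKM with siCHD4 alone (log2 difference 0.26, limma adjusted p = 0.343). It was called in none of the 3 siCHD4 comparisons by limma, nor at an unadjusted p under 0.05. Only with siDNMT1 did the call change: POU5F1 was called higher without replicate 1 of siCHD4 plus siDNMT1 and with library weights.

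Known repressors of germline genes were called about as often as all tested genes. Among those listed were the E2F6 and PCGF6 complex, the SETDB1 pathway, NuRD and DNA methyltransferases, but not DNMT1. Of 33 such genes 32 were tested. With siCHD4 alone 4 rose and 3 fell (median 0.05), where 9.58% and 9.71% of all tested genes were called. DNMT3B, a methyltransferase that sets new methylation, rose from 3.19 to 6.79 FPKM (0.90, limma adjusted p = 0.000204), and CHD3, the paralog of CHD4, from 5.77 to 10.5 FPKM (0.69, limma adjusted p = 0.0157). PCGF6 fell from 22.8 to 16.8 FPKM (-0.42, limma adjusted p = 0.00612). With siDNMT1 8 rose and 8 fell, in shares close to those of all tested genes, with a median of 0.00. With decitabine 1 rose and none fell, where 3.26% and 1.31% of all tested genes were called. The count of 4 was 2 without replicate 0 of the control siRNA group and 0 when only the 2 groups compared were fitted, and the single gene with decitabine was lost on leaving out any 1 of the 6 decitabine libraries except replicate 2 of siCHD4 plus decitabine.

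Of the 3 nearest listed genes on each side of TEX19 on chromosome 17, 2 were called higher with siCHD4 alone (CSNK1D and HEXD, the farthest of the 6), and the other 4 were not called or were near 0. SECTM1, a transmembrane protein gene whose nearer end lies 25.2 kb before TEX19, was at 7.75, 8.85 and 5.40 FPKM with control siRNA and at 4.55, 5.93 and 5.35 FPKM with siCHD4 alone (-0.39, limma adjusted p = 0.0818). UTS2R, the urotensin receptor gene 7.99 kb after TEX19, was listed at 0 in all 9 control siRNA libraries and in the 3 with siCHD4 alone, and reached at most 0.206 FPKM in any library. OGFOD3, 25.4 kb after TEX19, was at 9.43, 8.52 and 7.56 FPKM with control siRNA and at 7.70, 10.1 and 7.61 FPKM with siCHD4 (-0.01, limma adjusted p = 0.973). CD7, a T cell gene 41.6 kb before TEX19, was at or under 0.267 FPKM throughout.

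Of the 10 nearest protein-coding genes on each side, 18 were tested. Their median siCHD4 difference (log2) was 0.02 alone, -0.02 with siDNMT1 and -0.06 with decitabine. For siDNMT1 against control siRNA, 3 were called higher and 1 lower (median 0.15), where 6.94% and 4.4% of all tested genes were called. For decitabine against control siRNA, 5 were called higher and 1 lower (median 0.30), where 9.6% and 8.63% were called. These 2 comparisons also differ in schedule. With siCHD4 alone HEXD, an enzyme gene 54.5 kb away, rose from 3.71 to 5.62 FPKM (0.49, limma adjusted p = 0.0120) and CSNK1D, a casein kinase gene 85.6 kb away, from 16.6 to 22.7 FPKM (0.43, limma adjusted p = 0.0135). WDR45B, 250.8 kb away, fell from 45.6 to 35.1 FPKM (-0.37, limma adjusted p = 0.00502). These counts of 2 and 1 correspond to shares near or below those of all tested genes. The count of 2 was 1 without replicate 1 of the control siRNA group and 0 when only the 2 groups compared were fitted. With siDNMT1, 4 rose (CSNK1D, FASN, SLC16A3 and FN3K) and 3 fell (WDR45B, RAB40B and FN3KRP), shares near or below the 24.8% and 24.6% of all tested genes. With decitabine 0 of 18 were called by limma, beside only 3.26% of all tested genes called higher and 1.31% lower. At an unadjusted p under 0.05, 0 were higher and 2 lower.

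**Figure D5:**
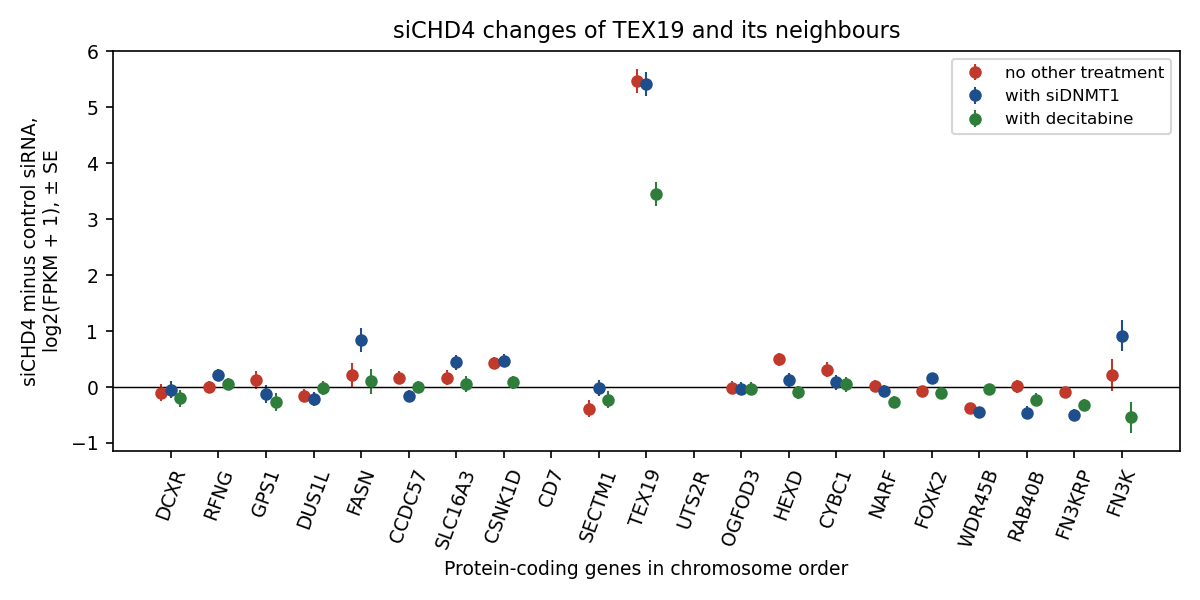
Difference between siCHD4 and control siRNA in log2(FPKM + 1), with SE, for TEX19 and its tested neighbours among the 10 nearest protein-coding genes on each side, in chromosome order; colours are the 3 backgrounds. TEX19 stands at 5.47, 5.42 and 3.45, and every neighbour lies below 1 in each background.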

How the data were processed

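RNA from 18 SW48 libraries was sequenced after ribosomal RNA removal, per the labels' protocols, and extracted with Trizol or an RNeasy kit, without a record of which library had which. The authors deposited FPKM values, made with TopHat2 2.0.9 on hg19 and Cuffdiff 2.1.1 per the submitters' processing notes. Annotation, filters and between-library scaling were not stated there. Of 23599 entries, 28 (0.119%) carry no gene name and were left out, and 3747 of the other 23571 are at 0 throughout.

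Values were taken to log2(FPKM + 1). The 12809 genes reaching 1 FPKM in 3 or more libraries were fitted with limma 3.58.1 in R 4.3.3, with 1 mean per group over 18 libraries and a trend in the mean. P-values are two-sided, Benjamini-Hochberg adjusted over all tested genes, and called below 0.05. TEX19 was given no test. The fit was tested on simulated data.

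TEX19 and the lists were chosen with earlier results of these data known. Genes were named by rule: the siRNA targets, the 8 genes nearest TEX19 by r and by gap, the 3 nearest neighbours on each side, genes adjacent in rank, and up to 4 genes of each list with the smallest adjusted p in each comparison. Others are marked as named after their values were seen, or complete a count.

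Groups and replicate numbers came from the titles. Equal numbers across groups were not treated as pairs. Relative depth was read from the steps between low values: in all libraries but replicate 0 of the decitabine controls, the worth of 1 fragment was within -0.74 to 0.17 (log2) of control siRNA replicate 0. Genes at 1 FPKM or more numbered 11477 to 12502 per library, and libraries of a group correlated at 0.929 to 0.980. Across the control siRNA and siCHD4 alone groups, replicate 2 of each deviated with replicates 0 and 1 of the other (residual correlations 0.173, 0.229, 0.197 and 0.196).

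Alternatives were other pseudocounts, filters and scalings, library weights, a fit of only 2 groups, a replicate block and leaving out each library.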

Additional observations from a re-analysis of the deposited data

Results flagged for a closer look

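Each result here was singled out because the siCHD4 effect differed between 2 backgrounds by a limma test of the difference itself, adjusted over all genes tested. No such difference was tested for TEX19, whose siCHD4 effects were 5.47, 5.42 and 3.45. The shares of all tested genes that passed these tests are not given, so nothing is read from how many genes are listed.

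Among genome-defence genes the siCHD4 effect was larger with siDNMT1 than alone for TDRD9 by 1.133 on the log2(FPKM + 1) scale (adjusted p = 3.65e-05), for GTSF1 by 2.057 (adjusted p = 0.00266) and for DDX4 by 0.678 (adjusted p = 0.0269). For TDRD9 it was also larger with siDNMT1 than with decitabine, by 0.636 (adjusted p = 0.00887).

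Among germ cell genes it was larger with siDNMT1 than alone for SOHLH1 by 2.621 (adjusted p = 0.000389), TEX101 by 2.052 (adjusted p = 0.000109), DPEP3 by 1.577 (adjusted p = 0.000235), TEX11 by 1.483 (adjusted p = 0.000482) and BRDT by 0.998 (adjusted p = 0.000961). For BRDT it was larger with decitabine than alone, by 0.781 (adjusted p = 0.0204). It was larger with siDNMT1 than with decitabine for TEX101 by 1.521 (adjusted p = 0.00368), DPEP3 by 0.946 (adjusted p = 0.0171), TEX11 by 0.797 (adjusted p = 0.0356) and STAG3 by 0.790 (adjusted p = 0.0425).

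In the opposite direction, the siCHD4 effect on HIST1H1T differed by -3.092 with siDNMT1 from that alone (adjusted p = 0.00171) and by -3.625 with decitabine (adjusted p = 0.00172). The difference was -0.826 for MEIOB with siDNMT1 against alone (adjusted p = 0.0270) and -0.785 for DNMT3B with decitabine against alone (adjusted p = 0.0412). Between siDNMT1 and decitabine it was -0.774 for CHD4 (adjusted p = 0.0289), -0.456 for PCGF6 (adjusted p = 0.0458) and -0.416 for the TEX19 neighbour WDR45B (adjusted p = 0.0368). For the neighbour FN3K the effect was larger with siDNMT1 than with decitabine, by 1.461 (adjusted p = 0.0377).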

How the results depend on the processing

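Of 434 alternative values for 32 results, 352 kept, 77 moved and 5 reversed; median-ratio rescaling moved none. The cause was not tested where a value moved. For TEX19 a pseudocount of 0.1 gave siCHD4 differences of 7.169 alone, 6.974 with siDNMT1 and 4.882 with decitabine, and quantile normalization 5.055 and 5.586 for the first 2. Quantile normalization turned siDNMT1 to -0.321 and decitabine to -0.095, and library weights turned decitabine to -0.015. Leaving out 1 library gave 5.344 to 5.568, 5.347 to 5.463 and 3.273 to 3.809 for siCHD4, -0.015 (without control siRNA replicate 1) to 0.145 for siDNMT1, and -0.108 to 0.428 for decitabine. The gap of 2.70 was 5.087 without the decitabine libraries and 3.461 without replicate 0 of the decitabine controls, an alternative chosen after seeing the data. Of the 8 alike genes, 5 to 8 were kept on leaving out 1 library.

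Counts of genes called higher by siCHD4 moved as follows. With a filter at 5 FPKM, fewer genes were tested: genome-defence genes numbered 2 with siDNMT1 and 0 with decitabine (3 for siDNMT1 and 3 for decitabine against control siRNA), germ cell genes 1 alone, 5 with siDNMT1 and 1 with decitabine (5 and 5 against control siRNA), and TEX symbols 1 with siDNMT1 and 0 with decitabine. With no filter, 14 genome-defence genes, 5 pluripotency genes and 9 TEX symbols were called with siDNMT1 and 2 pluripotency genes with decitabine. Library weights gave 2 genome-defence, 6 germ cell, 5 N-end rule, 9 repressor and 2 TEX genes alone, 1 pluripotency gene with siDNMT1, and 9 germ cell, 1 N-end rule and 3 repressor genes with decitabine. A fit of only the 2 groups compared, with fewer libraries, gave 1 germ cell and 0 N-end rule, repressor, TEX and neighbour genes alone, and 0 genome-defence, 1 germ cell, 0 repressor and 0 TEX genes with decitabine. A pseudocount of 0.1 and quantile normalization both gave 1 genome-defence, 3 germ cell and 1 TEX genes with decitabine, and quantile normalization also gave 0 repressors with decitabine and 1 neighbour alone.

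Leaving out 1 library gave 1 to 5 genome-defence, 2 to 6 germ cell, 0 to 1 repressor and 0 to 2 TEX genes with decitabine. Alone it gave 1 to 3 N-end rule genes, 2 to 6 repressors, 0 to 1 TEX symbols and 1 to 3 neighbours, and with siDNMT1 0 to 1 pluripotency genes. With the replicate number as a block, the repressors called with decitabine went from 1 to 0 and the other 29 results kept their side. Residuals of same-numbered libraries correlated at -0.31 to 0.126, so the numbers were not taken as a pairing. A planned search of the TEX19 promoter for motifs was not run, since no promoter sequence of it was used here. The control levels of TEX19 rest on 3 to 8 fragments per library, which limits any comparison among controls.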
